A study of Mus musculus with 4 samples.

Results

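The guanylate-binding proteins (GBPs) and the immunity-related GTPases (IRGs) are enzymes that bind and hydrolyze GTP and that are made in large amounts when a cell responds to interferon. They assemble on the membranes around intracellular bacteria and parasites, where the GBPs and the IRG effectors help to break the enclosing vacuole, while the Irgm proteins hold the IRG effectors in check on the cell's own membranes. Their genes are transcribed when factors activated by interferon bind 2 kinds of promoter element, the interferon-stimulated response element (ISRE) and the gamma-activated site (GAS).

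Transcripts of 9 genes of these families were examined in the deposited table of 38713 genes, 5 of them GBP genes (Gbp2, Gbp3, Gbp5, Gbp6 and Gbp7) and 4 of them IRG genes (Irgm1, Irgm2, Igtp and Iigp1). The members were chosen by symbol, as interferon-inducible GTPases of both families, and all 9 were in the table. RNA had been sequenced in 4 mammary tumor cell lines of C57BL6/J mice, each established from its own tumor and sequenced as 1 library. The 2 JNK_WT lines carried the genotype p53-/-, and the 2 JNK_KO lines the genotype p53-/- JNK-/-. In both groups Wap-Cre, a recombinase expressed in luminal mammary epithelium upon lactation, deleted floxed Trp53, and in the JNK_KO group it removed floxed alleles of Mapk8 and Mapk9 as well, which encode the stress kinases JNK1 and JNK2. The labels name no agent added to the cells. Expression was measured as FPKM, fragments per kilobase of transcript, scaled to the number of fragments mapped, so levels can be set side by side between genes.

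Transcripts of both JNK genes were lower in the JNK_KO lines, the direction that the labels give. Mapk8 was at 23.9 and 19.1 FPKM in the JNK_WT lines against 4.30 and 4.27 FPKM in the JNK_KO lines, and Mapk9 at 29.7 and 24.3 against 12.6 and 8.66 FPKM. Trp53, which both genotypes lack in its intact form, was listed at 1.55 to 5.72 FPKM. No line with intact Trp53 was among those compared, so these values do not show its loss. The FPKM values of a library summed to between 775960 and 921595, and its depth relative to the shallowest library was between 1 and 1.39. The epithelial genes Krt8 and Epcam lay at 278 FPKM or more and at 150 FPKM or more in every library. Other epithelial markers were uneven between lines of the same genotype. Krt14 was at 7.34 and 443 FPKM in the JNK_WT lines and at 26.7 and 313 FPKM in the JNK_KO lines. Krt5 was at 61.9 FPKM in JNK_WT replicate 2 and at 0.205 FPKM or less in the other lines. Of 15 leukocyte markers measured, 12 stayed under 1 FPKM in all libraries, and Ptprc, which encodes the pan-leukocyte antigen CD45, did not exceed 0.0134 FPKM. In bulk RNA, fewer cells of a type and less RNA per cell cannot be told apart.

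The genes lie in clusters of near relatives. Gbp5 (mm10 chromosome 3, 142493978 to 142522344), Gbp7 (142530342 to 142550149), Gbp3 (142560026 to 142573209) and Gbp2 (142620602 to 142638008) follow one another on the plus strand of chromosome 3. Gbp6 (105270702 to 105293698) lies on the minus strand of chromosome 5. Irgm1 (48861968 to 48871683, minus strand), Igtp (58199556 to 58207591, plus strand) and Irgm2 (58199618 to 58222782, plus strand) lie on chromosome 11. Iigp1 lies outside these clusters, in a further one with its relatives F830016B08Rik and Gm4951 on the same strand. The annotated spans of Igtp and Irgm2 overlap on the same strand. Reads from sequence that these relatives share cannot be assigned to one of them with certainty, so the split within a cluster is uncertain.

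Promoter windows from RefSeq (GRCm38.p6), which run from 250 bases before to 50 bases after a transcription start, were at hand for 7 of the 9 members. The ISRE core was searched as GAAA-NN-GAAA, the GAS element as TTCNNNGAA and the AP1 site, which is bound by JUN and FOS proteins, as TGANTCA, on both strands. All 7 members had an ISRE core in the window of at least 1 start, against 3.99% of the 27025 genes with a window. A GAS element was found in 4 of the 7 members (Gbp5, Gbp7, Irgm2 and Igtp), against 9.55% of genes, and both elements occurred together in these 4 members and in 0.54% of genes. An AP1 site was found in Gbp2 and Irgm1, against 8.97% of genes. No match overlapped a match to another of these motifs, although the ISRE matches in Gbp3 and in Irgm1 are pairs that overlap each other. Each stretch below shows the ISRE core with its neighboring matches, 5′ to 3′ on the strand of the gene, with matches in capitals.
Gbp2: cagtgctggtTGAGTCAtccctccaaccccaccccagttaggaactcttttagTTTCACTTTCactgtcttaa
Gbp3: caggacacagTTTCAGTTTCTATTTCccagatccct
Gbp7: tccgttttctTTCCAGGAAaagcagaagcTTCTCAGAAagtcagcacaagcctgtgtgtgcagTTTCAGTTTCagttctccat
Igtp: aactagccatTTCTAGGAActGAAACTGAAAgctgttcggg
Irgm2: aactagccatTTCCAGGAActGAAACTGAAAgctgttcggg
Irgm1: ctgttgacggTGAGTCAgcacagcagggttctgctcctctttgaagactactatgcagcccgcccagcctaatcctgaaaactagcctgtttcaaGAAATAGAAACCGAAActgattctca

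These stretches lie at chr3:142620551-142620623 for Gbp2, chr3:142559989-142560024 for Gbp3, chr3:142530220-142530302 for Gbp7, chr11:58199501-58199541 for Igtp and chr11:58214892-58214932 for Irgm2, all on the plus strand, and at chr11:48871425-48871545 on the minus strand for Irgm1. In Gbp2 the capitals are an AP1 site and then an ISRE core. In Gbp7 they are 2 GAS elements and an ISRE core, and in Gbp2, Gbp3 and Gbp7 the ISRE core lies on the opposite strand, so that it reads as its reverse complement. In Igtp and Irgm2 a GAS element is followed by an ISRE core. Over the 21 bases from the first to the last capital the windows differ by 1 substitution (T4C, from Igtp to Irgm2, counted from the first base of the GAS element). The RefSeq starts used for Gbp2, Gbp3, Gbp5, Irgm1 and Irgm2 lie inside the annotated spans of these genes. The bases checked after the start of Irgm2 were not found in the annotated transcripts of that gene, unlike those of the other stretches shown. Irgm1 holds an AP1 site and a pair of overlapping ISRE cores from position -30 to -15 relative to the start. In Gbp5, not shown, an ISRE core starts at position -165 and GAS elements start at -245 and -52. The second RefSeq start of Gbp3 had no match. A match describes the letters only.

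**Figure D1:**
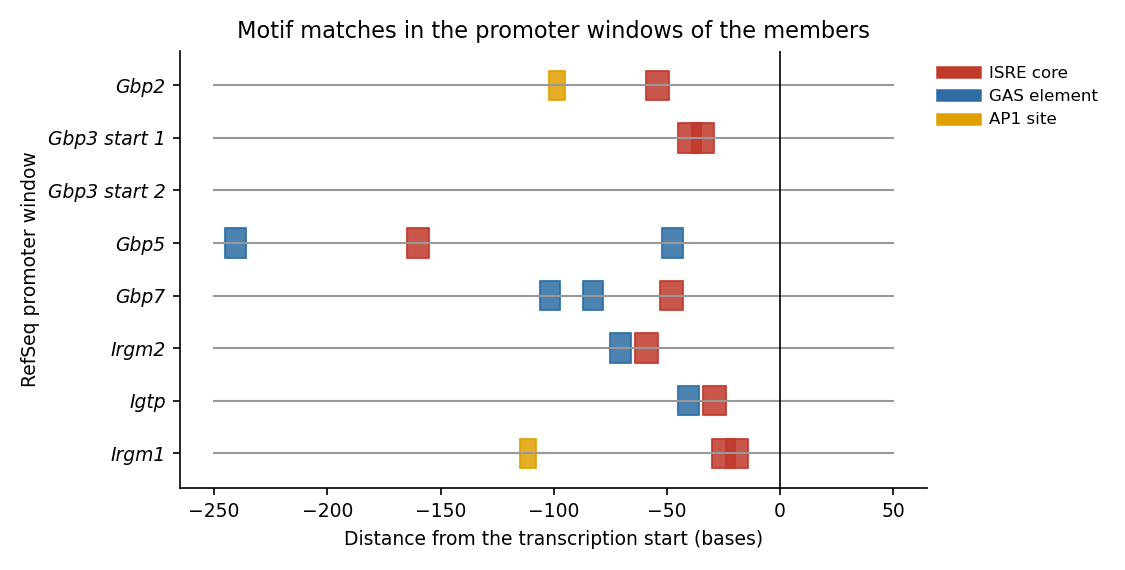
Positions of ISRE, GAS and AP1 motif matches in the 8 RefSeq promoter windows of 7 members, against distance from the transcription start in bases. Every row but the second start of Gbp3 holds an ISRE core, GAS elements occur in Gbp5, Gbp7, Irgm2 and Igtp, and AP1 sites in Gbp2 and Irgm1.

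To compare the members between the genotypes, the 12998 genes that reached 1 FPKM in 2 or more libraries were fitted with limma on log2(FPKM + 1), as JNK_KO minus JNK_WT. All 9 members were tested, although Gbp5, Gbp6 and Iigp1 passed the filter only through the JNK_KO libraries. Passing in this way places both JNK_KO values above both JNK_WT values. For these genes the lack of overlap was thus fixed by the filter, and they are included in the counts of 8 below. In 8 of the 9 members both JNK_KO lines lay above both JNK_WT lines, as they did for 18.3% of all genes tested, and the exception was Irgm1. The log2 differences of those 8 ran from 1.31 to 3.49, and the median of the 9 was 1.75, beside 0.01 over all genes tested. A call required an absolute log2 difference over 0.75 and a limma adjusted p-value under 0.05. None of the members was called, and neither was any of the 12998 genes (0%; smallest limma adjusted p-value 0.0515). Of the members 8 had an unadjusted p-value under 0.05 and were higher in JNK_KO cells, against 4.75% of all genes (7.63%, or 992, in either direction). With 2 lines against 2, the smallest p-value that an exact permutation test can give is 0.333.

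**Figure D2:**
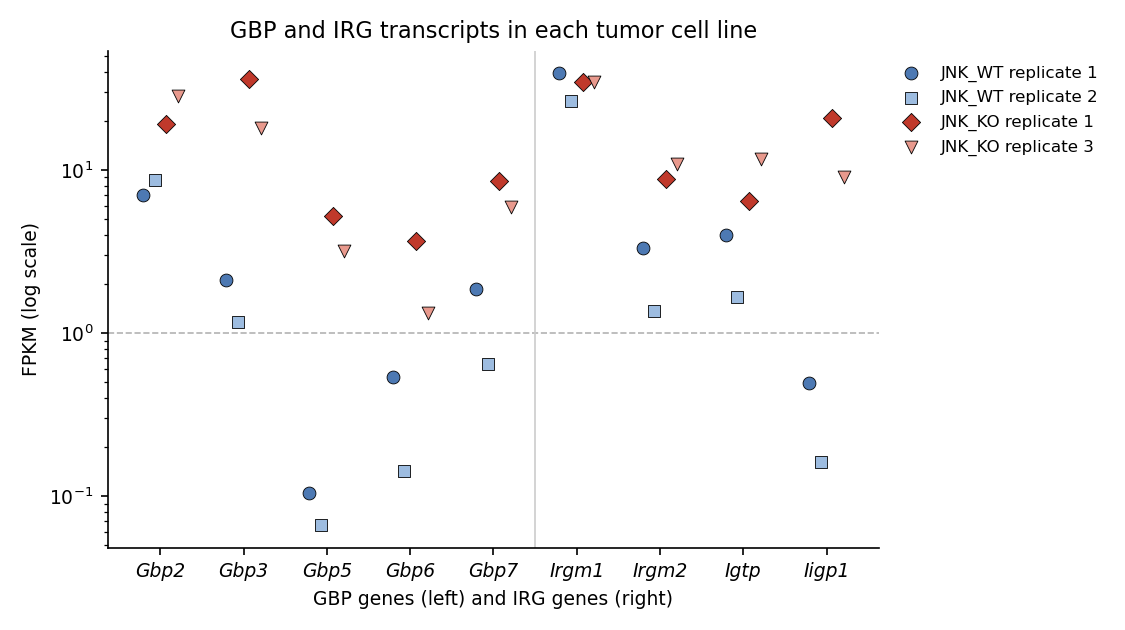
FPKM on a log axis of the 9 genes in each of the 4 cell lines, with GBP genes to the left and IRG genes to the right of the grey line and the dashed line at 1 FPKM. The JNK_KO symbols lie above the JNK_WT symbols for each gene except Irgm1, whose 4 values lie between 26.5 and 39.1 FPKM.

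Gbp3 had the largest difference among the 5 GBP members. It was at 2.12 FPKM in JNK_WT replicate 1, 1.17 in JNK_WT replicate 2, 36.1 in JNK_KO replicate 1 and 18.1 in JNK_KO replicate 3, and the values of other genes follow in this order. The difference on the log2 scale was 3.35 (SE 0.46, limma adjusted p-value 0.191) and ranked 79 among the genes tested. The mean FPKM was 16.4 times higher in JNK_KO cells, and the lower JNK_KO line was 8.50 times the higher JNK_WT line.

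Gbp5, which promotes inflammasome assembly in macrophages, was close to undetected in JNK_WT cells. Its values were 0.105 and 0.0664 FPKM in the JNK_WT lines and 5.19 and 3.19 FPKM in the JNK_KO lines. Mean FPKM was 49.0 times higher in JNK_KO cells, the widest ratio among the members. Both JNK_WT values were far under 1 FPKM, so this ratio rests on low values. The log2 difference depended on the value added before the logarithm. It was 2.23 (SE 0.35, limma adjusted p-value 0.233) when 1 was added and 4.50 when 0.1 was added.

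Gbp2, a prenylated GBP that is recruited to vacuoles, was the GBP with the highest level in JNK_WT cells. It was at 7.02 and 8.64 FPKM in the JNK_WT lines and at 19.0 and 28.4 FPKM in the JNK_KO lines, with groups that did not overlap. The mean FPKM was 3.03 times higher in JNK_KO cells, and the log2 difference was 1.46 (SE 0.33, limma adjusted p-value 0.379). Gbp2 was the only member that was lower in JNK_WT replicate 1 than in JNK_WT replicate 2.

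Gbp7 was at 1.85 and 0.642 FPKM without the deletion of JNK and at 8.53 and 5.94 FPKM with it. Its log2 difference was 1.91 (SE 0.42, limma adjusted p-value 0.378). Gbp6, the only GBP member of the chromosome 5 cluster, was at 0.538 and 0.143 FPKM in JNK_WT, compared with 3.68 and 1.32 FPKM in JNK_KO. Its log2 difference of 1.31 (SE 0.47, limma adjusted p-value 0.626) was the smallest among the 5 GBP members and ranged from 0.81 to 1.82 when a single library was left out.

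Among the IRGs, Iigp1 differed most. Iigp1 encodes Irga6, an effector that coats parasite vacuoles, and it was at 0.492 and 0.162 FPKM in the JNK_WT lines against 20.9 and 9.02 FPKM in the JNK_KO lines. Mean FPKM was 45.7 times higher in JNK_KO cells, and the log2 difference was 3.49 (SE 0.49, limma adjusted p-value 0.203), which ranked 68 among all genes tested. The JNK_KO lines differed 2.32 times and the JNK_WT lines 3.04 times from each other, far less than the groups did. Both JNK_WT values were under 1 FPKM, so the ratio of the means rests on low values.

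Irgm2 and Igtp, which encode regulatory IRGs (Igtp is also called Irgm3), had smaller differences. Irgm2 was at 3.34 and 1.36 FPKM without the deletion of JNK and at 8.77 and 10.8 FPKM with it, a log2 difference of 1.75 (SE 0.42, limma adjusted p-value 0.426). Igtp was at 4.02 and 1.66 FPKM in JNK_WT, compared with 6.45 and 11.7 FPKM in JNK_KO, a log2 difference of 1.42 (SE 0.49, limma adjusted p-value 0.609). For Igtp the lowest JNK_KO value was only 1.61 times the highest JNK_WT value, the narrowest gap among the 8 members whose groups did not overlap.

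Irgm1, the remaining regulatory IRG, was the exception. It was at 39.1 and 26.5 FPKM in the JNK_WT lines against 34.8 and 34.7 FPKM in the JNK_KO lines, so that both JNK_KO lines lay between the JNK_WT lines. Mean FPKM was 32.8 ± 8.91 against 34.8 ± 0.0633 (SD, 2 lines per genotype), and the log2 difference of 0.11 (SE 0.29, limma adjusted p-value 0.999) was smaller than the spread between the JNK_WT lines. The difference became -0.17 without JNK_WT replicate 2. Irgm1 was the most abundant member in JNK_WT cells, and its promoter window holds 2 overlapping ISRE cores as shown above.

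**Figure D3:**
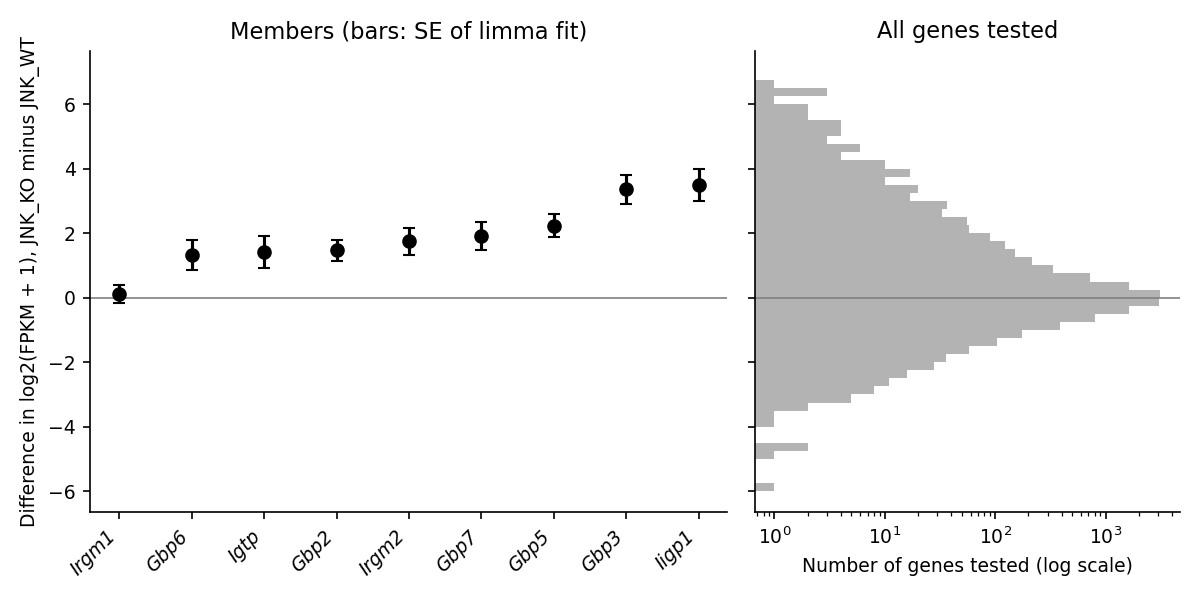
Left, difference in log2(FPKM + 1) between JNK_KO and JNK_WT lines for each member, with the SE of the limma fit (2 lines per group). Right, the number of genes tested at each difference, on a log axis: 8 members lie between 1.31 and 3.49, and Irgm1 lies at 0.11, near the median of all genes.

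The order of levels differed between the genotypes. In JNK_WT cells Irgm1 was highest (mean 32.8 FPKM), followed by Gbp2 (7.83), Igtp (2.84), Irgm2 (2.35), Gbp3 (1.65), Gbp7 (1.25), Gbp6 (0.340), Iigp1 (0.327) and Gbp5 (0.0856). The ranges of Irgm1 and Gbp2 did not overlap each other or those of any other member, Igtp through Gbp7 overlapped their neighbors, as did Gbp6 and Iigp1, and Gbp5 lay below all others. In JNK_KO cells the order of the mean FPKM was Irgm1 (34.8), Gbp3 (27.1), Gbp2 (23.7), Iigp1 (15.0), Irgm2 (9.80), Igtp (9.09), Gbp7 (7.24), Gbp5 (4.19) and Gbp6 (2.50). There each gene overlapped its neighbor in the order, except that both values of Gbp7 lay above both values of Gbp5.

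Lines of one genotype also differed from each other. JNK_WT replicate 1 was above replicate 2 for 8 of the 9 members, by a median log2 difference of 0.53 over all 9, beside a median absolute log2 difference of 0.43 between these lines over all genes. JNK_KO replicate 1 was above replicate 3 for 6 members, most of all for Iigp1 (log2 difference 1.13), Gbp6 (1.01) and Gbp3 (0.96). For Gbp2, Irgm2 and Igtp it was lower, with log2 differences of -0.55, -0.28 and -0.77. The members thus did not follow a single order of the 4 lines.

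**Figure D4:**
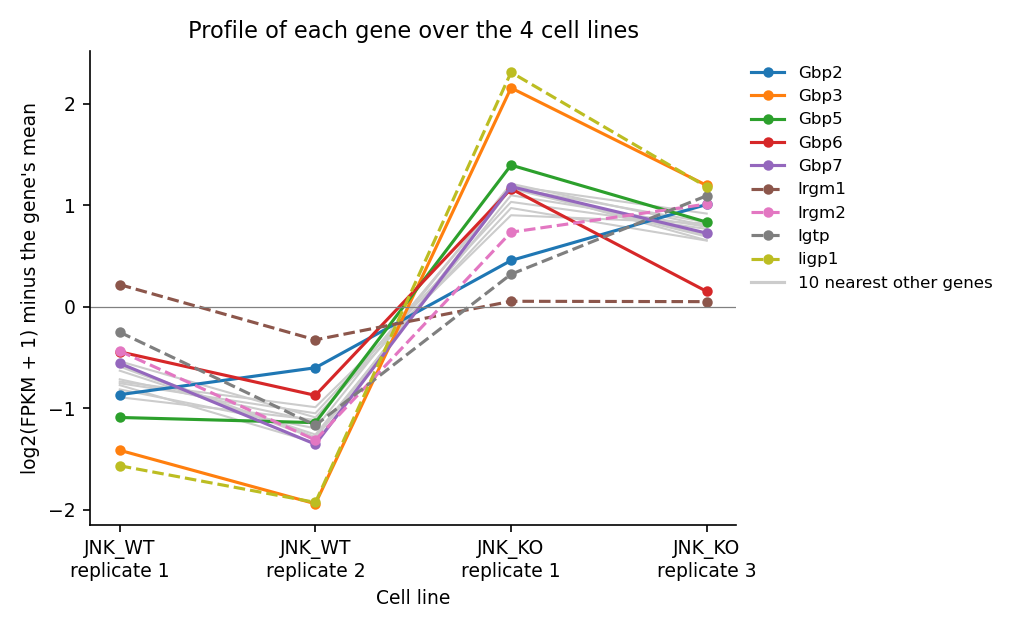
log2(FPKM + 1) of each member in the 4 cell lines after subtraction of its own mean, with GBPs as solid and IRGs as dashed lines that join the values of 1 gene, and the 10 other genes nearest to the members' mean profile in grey. Iigp1 and Gbp3 span the widest range, Irgm1 stays close to 0, and Gbp2, Irgm2 and Igtp are higher in JNK_KO replicate 3 than in JNK_KO replicate 1.

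The genes with the profile most like the mean of the members were found by the Euclidean distance between centered log2(FPKM + 1) values over the 4 lines. The nearest were the fatty acid ligase gene Acsl1 at a distance of 0.114, the tetraspanin gene Cd82 at 0.154 and Oas1g, an antiviral oligoadenylate synthetase gene, at 0.163. They were followed by Chst11, S1pr1, Il6st, Birc2, Gpr146, a microRNA row and Zeb1, at distances of up to 0.275. Oas1g and Chst11 passed the filter only through the JNK_KO libraries, so their being tested depended on higher JNK_KO values. Of the members, Gbp7 was nearest to the mean profile (0.263) and Irgm1 farthest from it (1.80).

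Other genes of the 2 families were examined as a group. Of 18 such genes measured, 10 were tested, none was called, 6 lay above in both JNK_KO lines and 1 lay below (18.3% and 16.7% of all genes tested), and the median log2 difference was 0.87 (0.44 without JNK_WT replicate 2). Gm4951 was at 0.312 and 0.0626 FPKM without the deletion of JNK and at 7.09 and 4.64 FPKM with it (log2 difference 2.52, SE 0.36, limma adjusted p-value 0.203). The other genes whose JNK_KO values were higher without overlap were Gm12250 (log2 difference 1.39), Tgtp2 (1.15), Tgtp1 (1.01), Ifi47 (0.93) and F830016B08Rik (0.80). Of these 6 genes, Gm4951, Gm12250, Tgtp2 and F830016B08Rik passed the filter only through the JNK_KO libraries, which fixed their lack of overlap. Tgtp1 and Tgtp2 are near-identical copies, so their split is uncertain.

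Ifi47, an IRG effector gene, was at 17.4 and 6.28 FPKM in JNK_WT, compared with 20.1 and 22.2 FPKM in JNK_KO. JNK_WT replicate 1 was thus close to the JNK_KO lines, and the log2 difference was 0.27 without JNK_WT replicate 2. Groups overlapped for Gbp9 (0.63), Gbp4 (0.50) and 9930111J21Rik2 (0.13), and the spans of Gbp4, Gbp8 and Gbp9 overlap one another in the annotation. Without JNK_WT replicate 2 the Gbp9 difference was 0.13. Irgq, a distant relative, was at 7.19 and 8.90 FPKM in the JNK_WT lines against 4.64 and 7.07 FPKM in the JNK_KO lines (log2 difference -0.42). The remaining 8 genes, which included Gbp2b, Gbp8, Gbp10 and Gbp11, were under 1 FPKM in all libraries.

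The large interferon-inducible GTPases Mx1 and Mx2 passed the filter only through the JNK_KO libraries, so their being tested depended on higher JNK_KO values. Mx1 was at 0.233 and 0.0558 FPKM without the deletion of JNK and at 2.44 and 2.21 FPKM with it (log2 difference 1.54, SE 0.30), and Mx2 had a log2 difference of 1.37. The atlastins and dynamins, GTPases of related structure that shape cell membranes without interferon, had a median log2 difference of 0.14 over 9 genes. Of these Atl1 was lower in JNK_KO cells (-1.09), while Dnm1 (0.57) and Dnm2 (0.37) had the next largest differences. Atl1 passed the filter only through the JNK_WT libraries, which fixed its lack of overlap.

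Genes that signal to the members were examined next. The interferon ligands were near the limit of detection, since all 9 stayed under 1 FPKM in every library and 7, among them Ifng, were listed at 0 in each. Ifnb1 was listed at 0 and at 0.0516 FPKM in JNK_WT cells and was at 0.260 and 0.0921 FPKM in JNK_KO cells. For 6 of the 7 receptor and JAK kinase genes both JNK_KO lines lay above both JNK_WT lines, as for 18.3% of all genes tested. The type I receptor chain Ifnar2 had a log2 difference of 1.57, the kinase Jak2 of 1.56, the interferon gamma receptor chains Ifngr2 and Ifngr1 of 1.27 and 0.77, and Ifnar1 of 0.49. Jak2 was uneven between the JNK_KO lines, at 67.9 and 21.6 FPKM, and its difference was 0.75 without JNK_KO replicate 1.

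Among 8 transcription factor genes tested, 5 lay above and 1 below in both JNK_KO lines (18.3% and 16.7% of all genes tested). Stat2 and Irf9, which encode parts of the complex that binds the ISRE, had log2 differences of 1.70 and 1.64, and Irf7 of 4.13. Irf1, which can drive GBP promoters by itself, was at 54.4 and 34.3 FPKM in the JNK_WT lines against 30.1 and 40.4 FPKM in the JNK_KO lines. Its groups overlapped, and its log2 difference was -0.30. Among the inhibitors of the pathway, the ISG15 protease gene Usp18 had a log2 difference of 2.57, the phosphatase gene Ptpn6 of -1.55 and Socs3 of 1.19. Leaving out 1 library gave -2.47 to -0.63 for Ptpn6 and 0.26 to 2.11 for Socs3, whose groups overlapped. The Usp18 difference was 0.88 without JNK_WT replicate 2, in which Usp18 was at 0.386 FPKM against 13.5 FPKM in replicate 1.

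**Figure D5:**
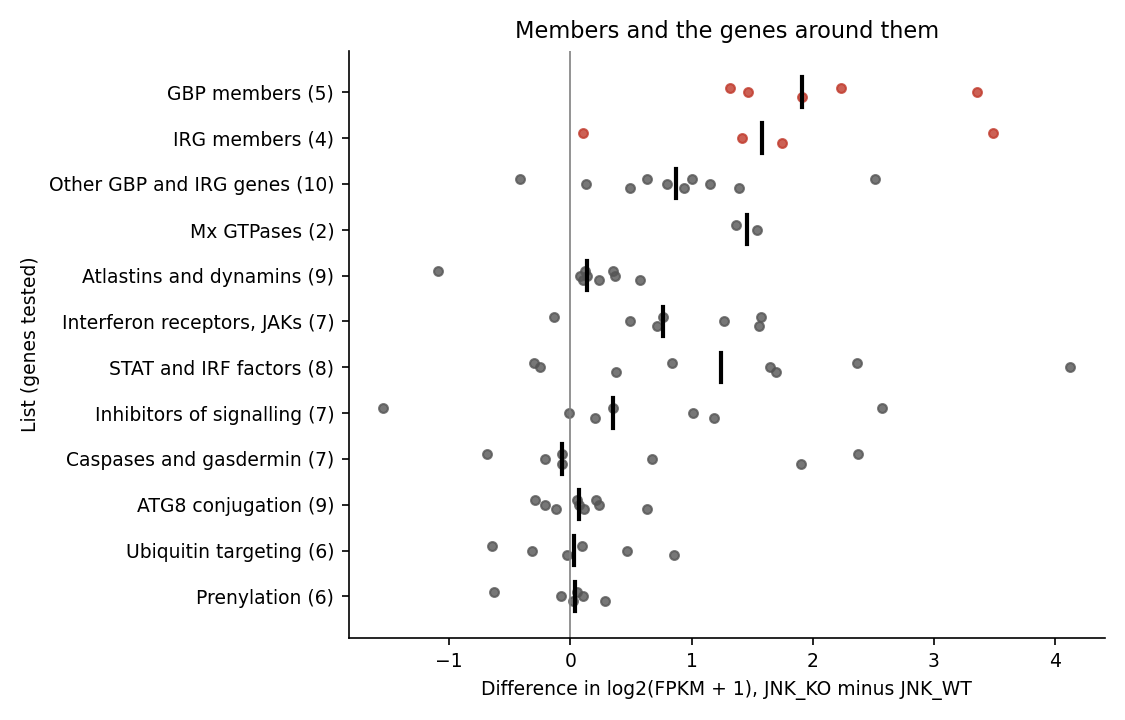
Difference in log2(FPKM + 1) between JNK_KO and JNK_WT lines for each tested gene of the members (red) and of the lists around them (grey), with a black bar at each list's median and the number of genes tested in brackets. The medians of the GBP and IRG members are 1.91 and 1.58, that of the STAT and IRF factors is 1.24, and those of the ATG8, ubiquitin and prenylation lists are 0.07, 0.03 and 0.04.

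The last lists held genes that act with the GTPases in the cell. The ATG8 conjugation system, which places the IRGs and GBPs on vacuoles, had 9 genes tested and a median log2 difference of 0.07, with the largest differences at Atg3 (0.64), Atg5 (-0.29) and Atg7 (0.24). Ubiquitin ligases and adaptors that act on such vacuoles had a median of 0.03, with the largest differences at Rnf213 (0.86), Sqstm1 (-0.65) and Trim21 (0.46). Over the fits that each left out 1 library these ranged from 0.34 to 1.38, from -1.29 to -0.0041 and from 0.21 to 0.71. The prenylation list, of enzymes that add lipid anchors to proteins such as GBPs and of enzymes that then process these proteins, had a median of 0.04. In it Fntb (-0.63), Zmpste24 (0.28) and Rce1 (0.11) differed most. Of the caspases and their partners, Casp4, which encodes caspase-11, was at 2.95 and 1.16 FPKM without the deletion of JNK and at 14.9 and 13.5 FPKM with it (log2 difference 2.38, SE 0.41). The pore-forming protein gene Gsdmd had a log2 difference of 1.90 and Il18 of -0.69, while the median of these 7 genes was -0.07, which turned to 1.33 without JNK_WT replicate 1 and to 0.92 with the filter at a mean FPKM of 5. None of the genes in these lists was called.

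Markers of other cell types were read beside the members. The 15 leukocyte markers summed to 25.0 and 7.21 FPKM in JNK_WT cells and to 15.1 and 18.8 FPKM in JNK_KO cells, so the groups overlapped, and Cd68 made up most of the first value at 20.0 FPKM. Of the 3 leukocyte markers tested, S100a8 was higher in both JNK_KO lines, as most members were. It was at 2.73 and 3.52 FPKM in the JNK_WT lines against 11.4 and 8.95 FPKM in the JNK_KO lines (log2 difference 1.44). The groups overlapped for Cd68 and Csf1r. The 9 fibroblast markers summed to 12.0 and 1.78 FPKM in JNK_WT cells and to 108 and 178 FPKM in JNK_KO cells. This sum was higher in both JNK_KO lines, as most members were, and there it came mostly from the proteoglycan gene Dcn and from Pdgfra. Between the JNK_KO lines it was higher in replicate 3, unlike most members. In JNK_WT replicate 1 it came mostly from Col1a2, at 10.3 FPKM. Of the 4 fibroblast markers tested, 3 lay above in both JNK_KO lines (Dcn, Pdgfra and Pdgfrb), with log2 differences of 6.35, 3.59 and 1.67. All 3 passed the filter only through the JNK_KO libraries, which fixed their lack of overlap. Thy1, which was not tested, was at 0.0861 and 0.0722 FPKM in JNK_WT, compared with 0.540 and 1.19 FPKM in JNK_KO. Groups overlapped for the collagen genes Col1a1, which was under 1 FPKM in all 4 libraries, and Col1a2, while Lum was listed at 0 in 3 libraries and at 0.00840 FPKM in the other. The 10 epithelial markers summed to 4070 and 3643 FPKM in JNK_WT cells and to 1340 and 3081 FPKM in JNK_KO cells. Both JNK_KO lines were lower in this sum, but not in most of its genes. Of the 9 epithelial markers tested, only 2 (Epcam and Krt8) lay below in both JNK_KO lines. Groups overlapped for the other tested markers, among them Krt18 and Krt14, and Krt14 had a log2 difference of 0.62. The part of these marker differences in the levels of the GTPases was not tested.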

How the data were processed

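The authors trimmed single-end reads with Trimmomatic, sampled the libraries with seqtk to similar read numbers, aligned them to mm10 with Bowtie2 and TopHat2 2.0.14 and estimated FPKM with Cufflinks 2.2.1. The deposited table gives FPKM for each gene in each library, unpooled, and the gene annotation used was not given in the sources used here. The table held 38741 rows, of which 27 with a date in place of a symbol and 1 without a value were left out. Differences on the log2(FPKM + 1) scale were tested two-sided with limma-trend (limma 3.58.1, R 4.3.3), and p-values were adjusted by Benjamini-Hochberg over all 12998 tested genes. The fit was checked on simulated data. FPKM are not counts, so no count model was fitted and no interval that needs a read count is given. Depths relative to JNK_KO replicate 1 were estimated from the steps of low FPKM values. Nothing in the labels ties a line to a mouse beyond its tumor, so p-values measure the spread between these lines.

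Groups came from the sample titles. The members, the gene lists and the motifs were chosen with earlier results of these data known, so no list test was run and lists are described by counts and medians. The genes named were the members, the targeted genes Mapk8, Mapk9 and Trp53, the tested genes of both GTPase families, the 3 tested genes with the largest absolute difference in each other list (except 1 gene that is not reported here), Irf1, Irf9, Ifngr1 and Ifnar1, and the 10 genes nearest in profile. Marker genes, and genes with low values, were named after their values were seen. Positions came from GENCODE M21 (GRCm38, the assembly of mm10), in which 12199 (93.8%) of the genes tested were matched by symbol. Promoter sequences came from RefSeq (GRCm38.p6), and no other promoter was looked for. Python 3.11.15 with pandas 2.3.3 and matplotlib 3.10.9 served for summaries and plots.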

Additional observations from a re-analysis of the deposited data

How the results depend on the processing

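No paired analysis was possible because nothing in the labels pairs a JNK_WT line with a JNK_KO line. Alternatives were other pseudocounts, filters, scalings and variance models and fits that each left out 1 library, in which the lone line of a group is assumed to vary like the other group. None of the members was called under any of the 14 alternatives, and the direction of the 8 members other than Irgm1 held in all in which they were tested. The count of called genes, 0, was 25 at a threshold of 0.1 on the adjusted p-value, 14 if no intensity trend was fitted, and 10 or 14 where the pseudocount was 0.1 or 0.5, and it was 0 in every fit without 1 library. The count of members whose groups do not overlap, 8, was 5 with the filter at a mean FPKM of 5, which tests only 6 members, and 8 to 9 without 1 library. The ninth is Irgm1, which was higher in JNK_KO without JNK_WT replicate 1 and lower without JNK_WT replicate 2. With a pseudocount of 0.1 the median log2 difference was 2.56 for the members, 2.58 for the GBPs and 1.40 for the other GBP and IRG genes, and with a pseudocount of 0.5 it was 2.22 for the GBPs. A smaller pseudocount shrinks low genes less by construction. With the filter at a mean FPKM of 5 the median was 2.41 for the GBPs, 0.28 for the inhibitors and 0.92 for the caspase list, and quantile normalization gave -0.15 for 9930111J21Rik2; the cause was not tested.

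Without 1 library the median log2 difference ranged from 1.51 to 2.19 for the members, from 1.60 to 2.26 for the GBPs, from 1.13 to 2.03 for the IRGs and from 0.44 to 1.27 for the other GBP and IRG genes. It ranged from 0.077 to 0.22 for atlastins and dynamins, 0.71 to 1.13 for receptors and JAKs, 1.08 to 1.40 for STAT and IRF factors, 0.24 to 0.73 for inhibitors, 0.0035 to 0.24 for ATG8 conjugation, -0.13 to 0.19 for ubiquitin targeting, -0.14 to 1.33 for the caspase list and -0.23 to 0.25 for prenylation. Directions reversed without 1 library for Irgm1 (range -0.17 to 0.38), Gbp4 (-0.033 to 1.02), 9930111J21Rik2 (-0.37 to 0.63, with -0.075 in a second reversal), Atg7 (-0.48 to 0.95), Il18 (-1.58 to 0.21), Rce1 (-0.50 to 0.72) and Irf1 (-0.63 to 0.024). These reversals, too, were not traced to a cause. The number of lines limits every comparison, since 2 lines stand for each genotype.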
